A study of Spirodela polyrhiza and Pistia stratiotes and Colocasia esculenta with 79 samples.

Results

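The 150 transcripts described here were low only in the NodeTract pieces of the Lemna minor frond. They were chosen by their levels from the 14856 transcripts of the Lemna table, out of 70253 in the 4 tables of the series. For each region the log2(TPM + 1) values were averaged, TPM being a transcript's share of its library. A score was then taken as the lowest of the Apical, Basal and LowerWall means minus the NodeTract mean. Of the table, 494 transcripts had a score of at least 1. In 353 of these the other 3 means also lay within 1 of each other, and 324 of those averaged at least 10 TPM in each of Apical, Basal and LowerWall. The 150 highest scores among these 324 are the members, and the other 174 were not taken. The level in NodeTract and the similarity of the other regions were therefore used in the choice, and in all 14 libraries together they are a description without a test.

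The series sequenced polyadenylated RNA from dissected regions of 4 plants of the arum family in 79 libraries, of which 14 are of Lemna minor. The Lemna groups were NodeTract (n = 4), LowerWall (n = 2, replicates 2 and 4), Basal (n = 4) and Apical (n = 4). All came from clone 8263, with no treatment or mutation named, so the libraries show the regions of 1 clone. The labels give the regions by name only and do not say where each was cut or how many fronds went into a library. They call the replicates biological without naming separate cultures, so a p-value measures the spread between these libraries.

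Lemna minor, the common duckweed, floats as small clonal fronds. Much of a frond is green tissue with air spaces, and Apical and Basal are called the blade here. In duckweeds new fronds bud from meristematic pockets beside the node, the point from which the root and the stalk of the frond also arise. The table names transcripts by identifier and pairs none of them with a gene name, so no function can be given to a member. No list of marker genes could be tested against the region names for the same reason. Identifiers in the table carry the number 7210 where the labels give clone 8263, and the labels used here do not say which genome the transcript set came from. Each gene identifier of the table had a single transcript, so the members are 150 different gene identifiers. No sequence of a member was at hand.

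The libraries were of even total, between 999543 and 999909 TPM, a unit that carries no read depth and so gives no counting error for a value. Median-of-ratios size factors, which estimate how the bulk of the transcripts is scaled in a library, were 1.04 to 1.45 in NodeTract, against 0.965 and 1.06 in LowerWall, 0.873 to 0.938 in Basal and 0.836 to 0.898 in Apical. NodeTract replicate 1 had the lowest factor of its region, and 1.27 was the next. Over all tested transcripts the median of NodeTract minus the blade mean was 0.58 on the log2(TPM + 1) scale as deposited and 0.09 after rescaling by these factors. The typical transcript thus stood above the blade in NodeTract as deposited and about level with it after rescaling. The members stood below the blade there, as the rule required.

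Together the members made up a small part of the NodeTract RNA. Their summed level was 18524, 17717, 18355 and 15765 TPM in NodeTract replicates 1 to 4. In LowerWall it was 46498 and 46776 TPM, in Basal 66146, 58362, 60319 and 64634 TPM, and in Apical 74391, 66514, 68844 and 69048 TPM. The 4 regions did not overlap in this sum, and NodeTract lay far below the others. Basal and Apical nearly met, at 66146 and 66514 TPM. The median over the members did overlap between these regions, at 98.2 to 123 TPM in the Basal libraries and 111 to 134 TPM in the Apical libraries. In LowerWall it was 102 and 101 TPM, within the Basal range. As a share of the library the members held 1.76% ± 0.127 in NodeTract (SD, n = 4), 4.66% ± 0.0199 in LowerWall (n = 2), 6.24% ± 0.363 in Basal (n = 4) and 6.97% ± 0.333 in Apical (n = 4). The NodeTract sum was 37.7% of the LowerWall sum, 28.2% of the Basal sum and 25.2% of the Apical sum. In whole pieces of tissue, fewer cells of a type and less RNA per cell cannot be told apart.

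**Figure D1:**
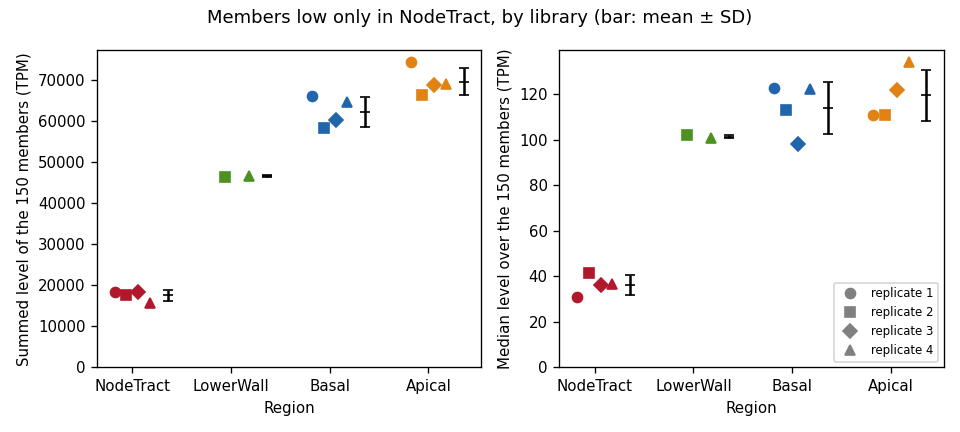
Summed level (left) and median level (right) of the 150 members in TPM, with 1 point per library, the shape giving the replicate number, and bars giving the mean ± SD of a region. The 4 NodeTract libraries lie between 15765 and 18524 TPM in the sum, and the lowest library of any other region is at 46498 TPM.

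A few abundant members carried these sums. The 10 most abundant held 56.9% of the summed level in NodeTract, 56.8% in LowerWall, 60.0% in Basal and 60.0% in Apical. The median member stood at 39.2 TPM in NodeTract, 105 TPM in LowerWall, 115 TPM in Basal and 123 TPM in Apical. NodeTract means of the members ranged widely, between 3.03 and 2605 TPM, with 21 members under 10 TPM and 31 over 100 TPM. In most members the NodeTract level was thus reduced and not absent. A member's NodeTract mean was at the median 38.8% of its mean in the lowest other region.

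The score itself ran from 1.21 to 3.09 with a median of 1.36, and 7 members exceeded 2. Rescaling the libraries raised the median to 1.73 and left all 150 members with a score of at least 1. The NodeTract size factors were above those of the blade, so rescaling lowers NodeTract against the blade for transcripts in general. The whole rule was then met by 811 transcripts in place of 324, and by 122 of the 150 members. Just inside the limit of 150, Lm7210a003g002620_T001 had a score of 1.21, with 73.1 ± 24.1 TPM in NodeTract and 163 ± 32.2 in LowerWall. Just outside, Lm7210a018g001540_T001 also had a score of 1.21, with 51.6 ± 4.76 TPM in NodeTract (SD, n = 4) and 121 ± 8.43 in Apical, its lowest other region. The end of the list is thus not a break in the values.

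The highest score belonged to a member whose NodeTract libraries disagreed. Lm7210a009g011200_T001 was listed at 0 in NodeTract replicates 1 and 3 and at 85.5 TPM in replicates 2 and 4. It stood at 54.1 and 112 TPM in LowerWall, at 83.8 to 159 TPM in Basal and at 32.1 to 198 TPM in Apical. Both NodeTract libraries in which it was found lay within the range of the other regions, so its score of 3.09 rests on the pair of zeros. The second highest score, 3.07, was that of Lm7210a001g012180_T001, at 2.54, 7.01, 0.86 and 4.34 TPM in NodeTract replicates 1 to 4. It stood at 44.5 and 38.2 TPM in LowerWall, at 75.4, 115.5, 19.2 and 27.3 TPM in Basal and at 43.0, 71.1, 12.6 and 31.2 TPM in Apical. Here every NodeTract library lay below every other library, and the NodeTract mean was 9.33% of the Apical mean, the lowest such share among the members.

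Zeros of this kind were rare among the members. Only 4 of the 150 were listed at 0 in any library, and they are named here after their values were seen. Besides Lm7210a009g011200_T001 these were Lm7210a019g000170_T001, Lm7210a003g007140_T001 and Lm7210a002g011930_T001. Lm7210a019g000170_T001 was at 0 in NodeTract replicates 2 and 4 and at 34.1 and 23.5 TPM in replicates 1 and 3, the opposite pair of libraries to Lm7210a009g011200_T001. In the other regions it ranged between 20.9 and 55.5 TPM. Whether such a 0 is an absent transcript or a failed estimate was not tested.

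The members with the largest spread within regions were Lm7210a003g007140_T001 and Lm7210a002g011930_T001. Lm7210a003g007140_T001 stood at 0, 131, 16.6 and 0 TPM in NodeTract replicates 1 to 4, at 39.5 and 43.1 TPM in LowerWall, at 0, 57.5, 91.5 and 45.6 TPM in Basal and at 13.9, 24.3, 46.4 and 30.4 TPM in Apical. Its mean in NodeTract, 37.0 TPM, exceeded its Apical mean of 28.7 TPM, and it was the 1 member for which the mean TPM goes against the label. Lm7210a002g011930_T001 was at 0, 16.1, 3.27 and 8.30 TPM in NodeTract, against 16.6 and 9.76 TPM in LowerWall, 3.47 to 34.1 TPM in Basal and 0 to 114 TPM in Apical. For both, NodeTract overlapped with every other region.

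The steadiest members showed the opposite picture. Lm7210a002g010280_T001 stood at 123, 126, 147 and 119 TPM in NodeTract, against 316 and 337 TPM in LowerWall, 385 to 452 TPM in Basal and 481 to 550 TPM in Apical. The 4 regions were fully separate, in the order NodeTract, LowerWall, Basal, Apical. Lm7210a008g009900_T001 had the same order of means, with 208 to 262 TPM in NodeTract, 557 and 574 TPM in LowerWall, 638 to 812 TPM in Basal and 822 to 909.7 TPM in Apical. Every NodeTract library was under every other library in 130 of the 150 members, and in 20 the libraries overlapped. Such a complete separation held for 8.84% of all tested transcripts, and nothing is read from the difference, since the rule used these values. Spread within a region was a little larger for members than for the 8134 transcripts of at least 10 TPM in Apical, Basal and LowerWall. The median SD on the log2 scale was 0.35 for members and 0.31 for those transcripts in NodeTract, and 0.20 and 0.18 in Apical.

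The 2 most abundant members were also the highest in NodeTract. Lm7210a004g007360_T001 stood at 3646, 2468, 2433 and 1873 TPM in NodeTract, against 6481 and 5924 TPM in LowerWall, 8319 to 9383 TPM in Basal and 9695 to 11904 TPM in Apical. Lm7210a007g004980_T001 stood at 3480.5, 1566, 1874 and 1483 TPM in NodeTract, against 4834 and 5648 TPM in LowerWall, 7613 to 10747 TPM in Basal and 7781.5 to 10889 TPM in Apical. For each the highest NodeTract library was replicate 1, and no NodeTract library reached the level of another region. Between them they supplied 26.8% of the summed member level in NodeTract, against 28.5% in Apical.

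**Figure D2:**
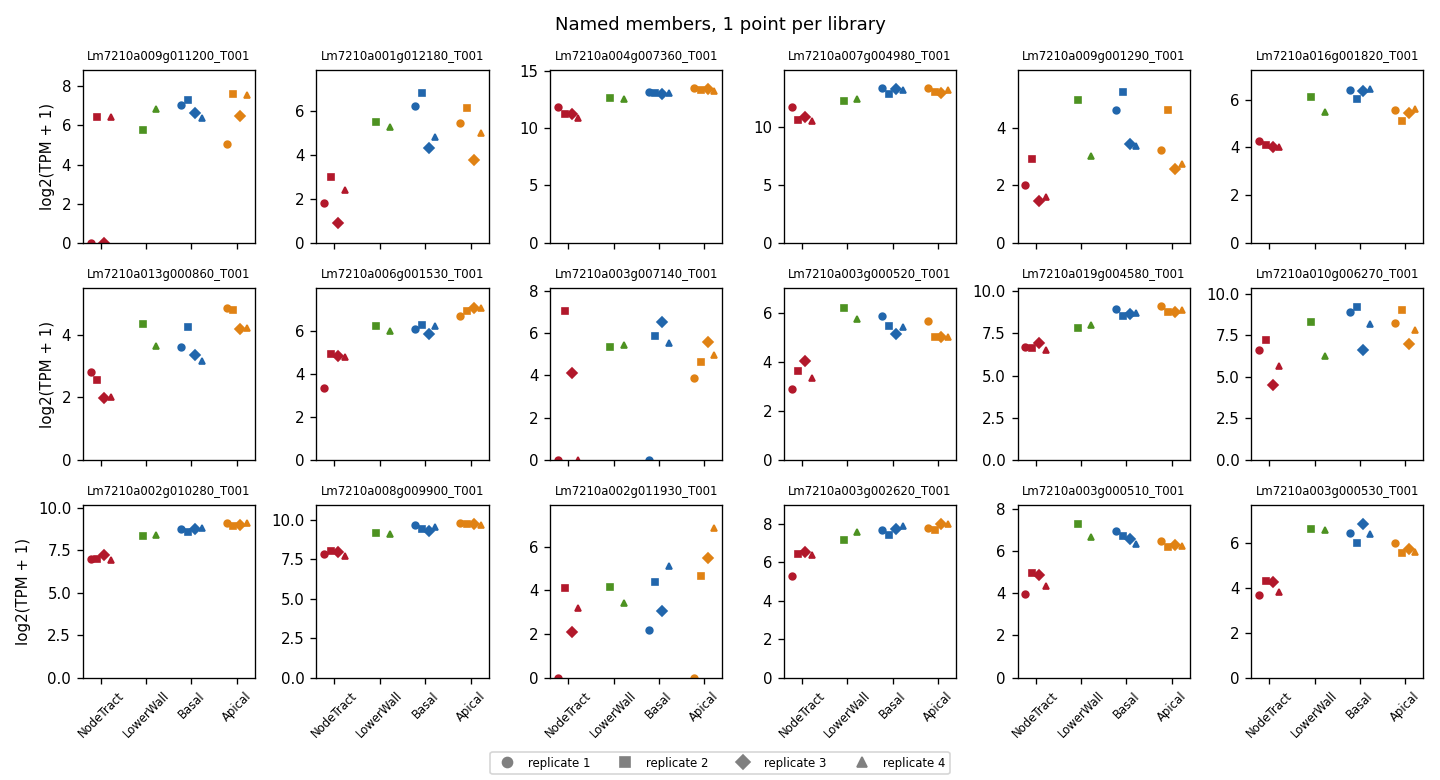
Level of 18 named members on the log2(TPM + 1) scale, with 1 point per library, the region on the horizontal axis and the shape giving the replicate number. Lm7210a009g011200_T001, Lm7210a003g007140_T001 and Lm7210a002g011930_T001 have NodeTract libraries at 0, while in Lm7210a002g010280_T001 and Lm7210a008g009900_T001 the NodeTract points lie together below those of every other region.

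Although the rule held the other 3 regions within 1 of each other, they were not level. LowerWall had the lowest mean of the 3 in 96 members, Basal in 28 and Apical in 26. Apical had the highest mean in 88 members, Basal in 34 and LowerWall in 28. The distance between the highest and the lowest of the 3 ran from 0.03 to 0.99 with a median of 0.58. LowerWall minus the blade mean was -0.36 at the median over the members as deposited and -0.55 after rescaling, while over all tested transcripts it was 0.23 and 0.07. The LowerWall sum was 66.9% of the Apical sum. After rescaling, LowerWall lay below both blade regions in 115 members. In most members the LowerWall mean thus lay between those of NodeTract and the blade, inside the limit that the rule set.

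To see where the members lie among related transcripts, all 879 transcripts were taken that were lower by at least 1 in NodeTract than in both blade regions, with Apical and Basal within 1 of each other and at 10 TPM or more. In 318 of these LowerWall was within 0.5 of the blade mean. It was lower by 0.5 to 1 in 390, lower by more than 1 in 154 and higher by more than 0.5 in 17. LowerWall was at or below NodeTract in 30. The median LowerWall position was -0.61, and it ran from -5.55 to 1.79. Members ran from -0.88 to 0.77 on this scale, and 95 of them were within 0.5 of the blade mean. Of the other 729 transcripts, 510 lay inside the range of the members, 213 below it and 6 above it. The rule itself limited the LowerWall position of the members, so nothing is read from their range or from the counts inside and outside it.

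**Figure D3:**
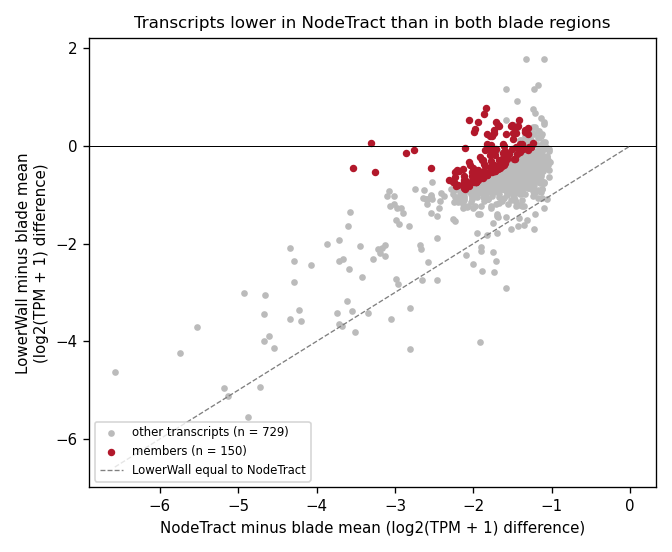
NodeTract minus the blade mean (horizontal) and LowerWall minus the blade mean (vertical), both as differences of log2(TPM + 1), for the 879 transcripts lower in NodeTract than in both blade regions. The 150 members (red) lie between -0.88 and 0.77 on the vertical axis, where 510 of the other 729 transcripts (grey) lie too, with 6 of the others above and 213 below.

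The members with the lowest LowerWall relative to the blade were Lm7210a019g004580_T001 and Lm7210a010g006270_T001. Lm7210a019g004580_T001 stood at 228 and 252 TPM in LowerWall, against 373 to 494 TPM in Basal and 427 to 560 TPM in Apical, with 91.5 to 119 TPM in NodeTract. Its LowerWall libraries lay between NodeTract and the blade without overlap. Lm7210a010g006270_T001 stood at 308 and 75.2 TPM in LowerWall, against 97.9 to 576 TPM in Basal and 123 to 522 TPM in Apical. One of its LowerWall libraries lay within the blade range and the other below it.

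The highest LowerWall relative to the blade was that of Lm7210a003g007140_T001 (0.77), whose libraries disagreed as given above, and of Lm7210a003g000520_T001 (0.66). The second of these is in a run of 3 neighbouring identifiers. Lm7210a003g000510_T001, Lm7210a003g000520_T001 and Lm7210a003g000530_T001 follow each other in the table, and each had its highest mean in LowerWall. Lm7210a003g000510_T001 stood at 14.8, 30.2, 27.9 and 19.3 TPM in NodeTract, against 153 and 103 TPM in LowerWall, 80.03 to 122 TPM in Basal and 72.3 to 87.9 TPM in Apical. Lm7210a003g000520_T001 stood at 6.60, 11.4, 15.4 and 9.24 TPM in NodeTract, against 74.4 and 53.5 TPM in LowerWall, 34.5 to 58.6 TPM in Basal and 31.4 to 50.5 TPM in Apical. Lm7210a003g000530_T001 stood at 12.1, 18.9, 18.2 and 12.9 TPM in NodeTract, against 97.2 and 96.7 TPM in LowerWall, 62.6 to 114 TPM in Basal and 45.6 to 63.1 TPM in Apical. NodeTract was below every other library in all 3. In each, LowerWall overlapped with Basal and lay above every Apical library. Their similarity in sequence was not examined, and near-identical copies would share reads.

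Such neighbours were a minority. Altogether 17 of the 150 members lay directly beside another member in the table, in 7 pairs and the run of 3. The identifiers fall under 21 contig numbers, and each held at least 2 members. Members made up 1.01% of the table, between 0.381% on number 11 (2 of 525 transcripts) and 1.87% on number 21 (6 of 321 transcripts). Members thus occur on all the numbered sequences. Whether neighbours are more frequent among the members than among transcripts drawn at random from the table was not tested.

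Apical and Basal differed little for most members, as the rule required. The members with the largest Basal minus Apical difference were Lm7210a009g001290_T001 and Lm7210a016g001820_T001. Lm7210a016g001820_T001 stood at 83.9, 63.8, 82.1 and 86.5 TPM in Basal, against 47.1, 34.0, 42.3 and 47.4 TPM in Apical, a log2 difference of 0.88 (SE 0.16), with 15.1 to 18.2 TPM in NodeTract. Its blade regions did not overlap. Lm7210a009g001290_T001 had the same difference of 0.88 with an SE of 0.58, and its Basal libraries, at 9.22 to 37.1 TPM, overlapped with Apical at 4.96 to 23.3 TPM. Lm7210a013g000860_T001 and Lm7210a006g001530_T001 had the largest difference the other way. Lm7210a006g001530_T001 stood at 55.6 to 74.9 TPM in Basal, against 101 to 133 TPM in Apical (log2 difference -0.84, SE 0.28), and Lm7210a013g000860_T001 at 7.93 to 17.9 TPM in Basal, against 17.3 to 28.0 TPM in Apical (log2 difference -0.92, SE 0.28).

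A linear model over all 14 libraries, fitted with limma to every transcript, gives the counts beside which these values can be set. A call is a Benjamini-Hochberg adjusted p under 0.05. Lower in NodeTract than in Apical were 145 of the 150 members, where 15.2% of all tested transcripts were called in that direction. Against Basal the count was 145 (15.7% of all tested) and against LowerWall 141 (12.1% of all tested). Higher in NodeTract were 0 members in each of these (52.5%, 50.6% and 37.6% of all tested), and 0 also at an unadjusted p under 0.05. The share of all tested depended on the scale. After rescaling, 148 members were called lower in NodeTract than in Apical (29.1% of all tested), 148 than in Basal (28.6%) and 142 than in LowerWall (22.1%). Between the other regions, 6 members were higher in Basal than in Apical (1.91% of all tested) and 0 lower (0.694%). At an unadjusted p under 0.05, 11 were higher in Basal and 26 lower. Lower in LowerWall were 12 against Basal (3.13%) and 38 against Apical (4.91%), and higher in LowerWall 0 against Basal (3.51%) and 2 against Apical (8.92%). At an unadjusted p under 0.05, 42 were lower and 2 higher in LowerWall than in Basal, and 59 lower and 5 higher than in Apical. The shares of all tested transcripts at that unadjusted threshold were not counted. The rule used all of these contrasts, so nothing is read from the counts. The member calls between the other regions moved with the fit, and the share of all tested called in either direction under the same fit is given in brackets. Between Basal and Apical 6 members were called in all (2.61%). It was 19 with the replicate number as a block (7.77%), 18 without NodeTract replicate 1 (3.87%) and 3 without NodeTract replicate 2 (2.15%). Without any single Apical library, or without Basal replicate 1, 3 or 4, it was 1 or 2 (0.967% to 1.59%). Between LowerWall and Basal the 12 calls (6.63%) became 22 with the block (11.7%), 26 after rescaling (7.26%) and 23 without NodeTract replicate 1 (14.1%). They became 4 without LowerWall replicate 2 (7.84%), 0 without LowerWall replicate 4 (2.62%), 3 without Basal replicate 1 (3.96%) and 2 without Basal replicate 4 (3.61%). Between LowerWall and Apical the 40 calls (13.8%) became 21 without LowerWall replicate 2 (14.3%), 15 without LowerWall replicate 4 (3.55%), and 26 without Apical replicate 1 (7.85%) or 3 (8.78%).

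For a test on libraries that took no part in the choice, the same rule was applied to the 8 libraries numbered 2 and 4, the only numbers found in all 4 regions. There 344 transcripts met it, the 150 highest were taken, and 101 of these are among the members. Their NodeTract level was then compared in the 6 libraries numbered 1 and 3. Lower in NodeTract than in Apical were 122 of the 150 (81.3%), against 9.66% of all 14340 tested transcripts. Against Basal it was 116 (77.3%), beside 8.27% of all tested (limma, Benjamini-Hochberg adjusted over all tested, n = 2 each). Among the 8123 transcripts of at least 10 TPM in Apical, Basal and LowerWall of numbers 2 and 4 the shares were 15.4% and 12.5%. Of the 150, 112 were lower than in both blade regions, as were 7.1% of all tested. Higher in NodeTract were 0 of the 150 by limma's adjusted p, against 34.1% of all tested for Apical and 28.8% for Basal, and 0 also at an unadjusted p under 0.05. The median log2 difference was -1.81 against Apical and -1.64 against Basal, while over all tested transcripts it was 0.55 and 0.47. These fits took no account of the replicate number. With it as a block, 139 of the 150 were lower than in Apical (11.8% of all tested) and 138 lower than in Basal (11%). After rescaling, with the 150 chosen again on that scale, 120 were lower than in Apical (17.7% of all tested) and 113 lower than in Basal (15.1%).

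The separation held library by library as well. In 135 of these 150 both NodeTract libraries numbered 1 and 3 lay below all 4 Apical and Basal libraries of those numbers, as did 15.1% of all tested transcripts. The lower of the Apical and Basal means exceeded the NodeTract mean in 149 of the 150 and did so by at least 1 in 137. LowerWall has no library numbered 1 or 3, so its part of the pattern was not tested in this way. Whether libraries of different numbers came from separate cultures is not given in the labels.

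The transcripts that stood first in the choice behaved unequally in the test libraries, and the first 3 are named here after their values were seen. Lm7210a019g000170_T001 had the highest choice score, 5.02, with NodeTract at 0 in both libraries of the choice. In the test libraries it stood at 34.1 and 23.5 TPM in NodeTract, against 27.5 and 36.8 TPM in Basal and 43.7 and 55.5 TPM in Apical, and was not called (limma adjusted p = 0.703 against Basal and 0.0788 against Apical). Lm7210a021g000720_T001 came next, at 3.81 and 2.23 TPM in NodeTract, against 36.5 and 31.5 TPM in Basal and 36.1 and 26.3 TPM in Apical. It was lower in NodeTract by a log2 difference of -3.15 against Basal and -3.01 against Apical (SE 0.33 each, limma adjusted p = 0.00268 and 0.00214). Lm7210a013g003660_T001, next in the choice and no member, was the 1 transcript that went the other way, at 0 and 173 TPM in NodeTract, against 64.0 and 0 TPM in Basal and 0 and 26.0 TPM in Apical (limma adjusted p = 0.875 and 0.756). Leaving out the chosen transcripts with a library at 0 gave the same counts of 122 and 116.

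**Figure D4:**
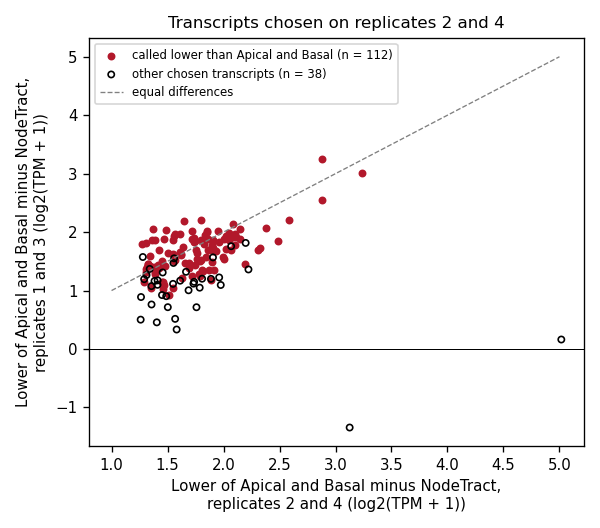
For 150 transcripts chosen on replicates 2 and 4, the lower of the Apical and Basal means minus the NodeTract mean, as a difference of log2(TPM + 1), in replicates 2 and 4 (horizontal) and in replicates 1 and 3 (vertical). Filled points are the 112 called lower in NodeTract than in both blade regions, and 149 of the 150 lie above 0 on the vertical axis.

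Within regions, libraries with the same replicate number deviated together. After each member's region mean was taken off, the Pearson correlation over the 150 members between Basal and Apical libraries of the same number was 0.576 to 0.835 for the 4 numbers. Between NodeTract and Apical it was 0.358 to 0.601, and between NodeTract and Basal 0.073 to 0.667, with the lowest value for number 4. Between LowerWall and Basal it was 0.637 for number 2 and 0.458 for number 4. These are descriptions across transcripts, which are not independent, and deviations within a region sum to 0, so libraries of different numbers tend to negative values. Over all tested transcripts the same-number correlations were 0.331 to 0.457 between Basal and Apical and 0.183 to 0.332 between NodeTract and Apical. They went lower between NodeTract and Basal (0.049 to 0.378) and between NodeTract and LowerWall (0.09 to 0.443).

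**Figure D5:**
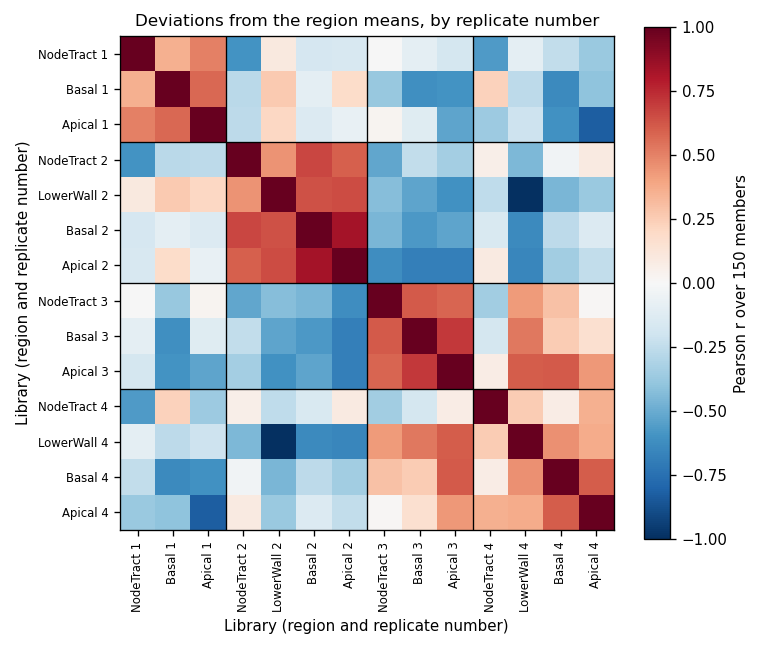
Pearson correlation over the 150 members between libraries, after the mean of each region was taken off, ordered by replicate number (black lines part the numbers). Same-number blocks are positive throughout, from 0.073 to 0.835, and the 2 LowerWall libraries mirror each other because their deviations sum to 0.

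A term for the replicate number beside the region, added after this pattern was seen, was called in 33 of the 150 members (22.0%), against 11.6% of all tested transcripts and 15.4% of those at 10 TPM or more (limma F test, Benjamini-Hochberg adjusted). Leaving out 1 library gave between 24 and 51 members, with the 51 (34.0%, against 17.2% of all tested) reached without NodeTract replicate 1. Transcripts low in both NodeTract and LowerWall had a larger share, 45 of 120 (37.5%), so the share of the members is not particular to them. Of the 33, 12 were highest in number 2, 11 in number 3, 7 in number 4 and 3 in number 1. Lowest were 11 in number 1, 9 in number 2, 8 in number 3 and 5 in number 4. No number was the highest or the lowest in most of the 33, though number 1 was more often the lowest than the highest.

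Lm7210a010g006270_T001 shows how such a member looked. It stood at 95.9, 144, 22.0 and 50.3 TPM in NodeTract replicates 1 to 4, against 479, 576, 97.9 and 286 TPM in Basal and 298, 522, 123 and 224 TPM in Apical. In each of these 3 regions replicate 2 was the highest and replicate 3 the lowest (limma F test adjusted p = 0.000357). The NodeTract level was under that of Basal and Apical in every number, but NodeTract replicate 2 exceeded Apical and Basal replicate 3. Lm7210a001g012180_T001 had the same order of numbers 2, 1, 4 and 3 in Apical and Basal and a limma adjusted p of 0.00843. Lm7210a009g001290_T001 was likewise highest in number 2 in every region, at 6.55 TPM in NodeTract, 29.9 in LowerWall, 37.1 in Basal and 23.3 in Apical (limma F test adjusted p = 0.000762). In Lm7210a010g006270_T001 and Lm7210a009g001290_T001 NodeTract was below Basal and Apical within every number, while libraries of different numbers overlapped. In Lm7210a001g012180_T001 the order in NodeTract was 2, 4, 1 and 3, and NodeTract lay below the other regions across numbers too. What the numbers share is not given in the labels.

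The 120 transcripts low in both NodeTract and LowerWall can be set beside the members, with which they share 0 transcripts. They were lower by at least 1 in both regions than in either blade region, with Apical and Basal within 1 of each other and at 10 TPM or more. Their summed level was 7780 TPM in NodeTract replicate 1 and 5016, 6426 and 5054 TPM in replicates 2 to 4, against 10576 ± 782 TPM in LowerWall (SD, n = 2), 28510 ± 2427 in Basal and 28589 ± 3269 in Apical (n = 4 each). NodeTract thus held 21.2% of the Apical sum for these transcripts and 25.2% for the members. Replicate 1, the NodeTract library with the lowest size factor, was the highest for both sums but the lowest for both medians. Its median was 30.8 TPM over the members, against 36.2 to 41.6 TPM in replicates 2 to 4. Over the 120 transcripts its median was 6.76 TPM, against 6.99 to 10.3 TPM. How much blade tissue the NodeTract pieces held, and its part in the level of the members there, was not tested.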

How the data were processed

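The Lemna table holds TPM as the authors deposited it, and the submitters' processing notes name Salmon 1.10.0. No source used here names the index or any filter. TPM is relative to each library's total, so a rise of other transcripts lowers a value, and it carries no depth. Only the Lemna table was analysed here. No 2 libraries held the same values.

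The members and lists were chosen with earlier results of these data known, so the test on libraries 1 and 3 is independent of the choice of transcripts but not of the rule's limits. Regions were compared with limma 3.58.1 in R 4.3.3 on log2(TPM + 1), with a mean-variance trend, over transcripts of at least 1 TPM in at least 2 libraries. The fit was also run on simulated data with independent libraries, which does not cover libraries that deviate together by number. Fold differences on this scale understate low transcripts. Named members were the first 2 by score, abundance, regional difference or spread, those at the limit, and the longest run of neighbours.

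Over all tested transcripts, deviations of same-numbered libraries correlated above 0.1 in all 4 pairs of NodeTract with Apical and of Basal with Apical. NodeTract with Basal (lowest 0.049) and NodeTract with LowerWall (lowest 0.09) did not exceed 0.1 in every pair. The labels name no pairing, and the main fits left the number out. Alternatives were a pseudocount of 0.1, rescaling, no filter, a replicate block and leaving out each library.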

Additional observations from a re-analysis of the deposited data

Results flagged for a closer look

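In 60 groups of 4 libraries (19 named transcripts and the summed level, in 3 regions), 4 had a library far from the others, where chance gives about 1 in 20 such groups. Lm7210a006g001530_T001 was at 9.13 TPM in NodeTract replicate 1, with the other NodeTract libraries at 26.6 to 28.8 TPM. Lm7210a003g002620_T001 was at 37.3 TPM in NodeTract replicate 1, with the others at 81.6 to 90.1 TPM. Lm7210a003g007140_T001 was at 131 TPM in NodeTract replicate 2, with the others at 0 to 16.6 TPM. Lm7210a003g000520_T001 was at 50.5 TPM in Apical replicate 1, with the others at 31.4 to 32.1 TPM.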

How the results depend on the processing

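Shares in brackets are those of all tested transcripts called under the same fits. Where a range is given, the lowest and highest share need not come from the fits with the lowest and highest count. The list depends on the libraries used: 139 of the 150 members were chosen again with a pseudocount of 0.1, 117 after rescaling, 123 with medians in place of means, and 103 to 144 without 1 library, lowest without LowerWall replicate 2. The score stayed above 0 for all 150 in each of these, but the members were chosen by that score in these same libraries. Its lowest value was 0.24, without LowerWall replicate 2. The median score was 1.73 after rescaling and 1.30 to 1.40 without 1 library. Counts of members called lower in NodeTract ranged without 1 library from 141 to 146 against Apical (14.3% to 15.4%), 143 to 146 against Basal (14.4% to 15.7%) and 127 to 141 against LowerWall (8.15% to 12.6%). In the libraries numbered 1 and 3 the counts were 83 to 124 against Apical (4.02% to 14.2%) and 82 to 118 against Basal (3.91% to 12.3%) without 1 library, where a lone library is assumed to vary like the other groups. Between Basal and Apical the 6 member calls became 19 with the replicate block (7.77%) and 1 to 18 without 1 library (0.967% to 3.87%). Between LowerWall and Basal the 12 became 26 after rescaling (7.26%), 22 with the replicate block (11.7%) and 0 to 23 without 1 library (2.62% to 14.1%). Between LowerWall and Apical the 40 became 15 to 59 without 1 library (3.55% to 21.9%). Members called for the replicate number were 24 to 51 (6.68% to 17.2%). The cause of these shifts was not tested. The replicate block changed no other count of calls by over 1.5 times. LowerWall has 2 libraries, which limits every statement on that region.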
